A study of Mus musculus with 6 samples.

Results

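The 81 genes described here are the nuclear genes of the mitochondrial respiratory chain and ATP synthase that were listed for the mouse hippocampus. They were chosen by symbol alone, as every listed gene named Ndufa, Ndufb, Ndufc, Ndufs or Ndufv with a number, Sdha to Sdhd, Uqcr, Cox4 to Cox8, or Atp5, out of 14477 listed genes. RNA-Seq had been performed on hippocampal tissue of 6 untreated mice with 1 library each. Replicates 2, 3, and 6 were of the genotype Phf21bΔ4/Δ4, and replicates 5, 7, and 8 were Phf21b+/+. Phf21bΔ4/Δ4 mice carry in every tissue a homozygous CRISPR/Cas9 deletion in exon 4 of Phf21b, which encodes a plant homeodomain finger protein that reads chromatin, and Phf21b+/+ mice carry the intact gene. By the study's methods, mice were on a C57BL/6J background, and young adult littermates of either sex served in its experiments unless it states otherwise, while the age and sex of each sequenced mouse are not given in the sources used here.

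The respiratory chain passes electrons from NADH and succinate to oxygen and stores the energy released as a proton gradient across the inner mitochondrial membrane. Complex I (NADH dehydrogenase) and complex II (succinate dehydrogenase) feed electrons to complex III (cytochrome bc1 complex) and complex IV (cytochrome c oxidase), and complex V (ATP synthase) uses the gradient to make ATP. Neurons draw most of their ATP from this pathway. Complexes I, III, IV, and V combine products of nuclear genes with products of mitochondrial DNA, and several subunits of complexes IV and V have isoforms made from separate genes. Of the 81 genes, 36 were assigned to complex I, 4 to complex II, 8 to complex III, 16 to complex IV, and 17 to complex V. Ndufa4 and Ndufa4l2 were placed with complex IV, in which the NDUFA4 protein resides despite its name. Ndufb1-ps is marked as a pseudogene by its symbol. Cox4i2, Cox6b2, and Cox8c, further isoforms of complex IV, were not among the listed genes.

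Each library held between 20495605 and 24881257 reads assigned to listed genes. Levels are given in CPM, reads scaled to the effective size of each library. Phf21b itself was at 2.15, 3.57, and 3.87 CPM against 6.50, 5.23, and 6.47 CPM in Phf21bΔ4/Δ4 and Phf21b+/+ mice, without overlap (log2 fold change -0.96, SE 0.26, limma adjusted p = 0.141). The genotypes also differed in markers of hippocampal fields and of neighboring structures. The 8 CA1 markers summed to 1023 to 1201 CPM in Phf21bΔ4/Δ4 mice and 420.5 to 465.6 CPM in Phf21b+/+ mice, with Fibcd1, Mpped1, and Gpr161 significantly higher. The 8 dentate granule cell markers summed to 325 to 602 CPM against 734 to 829 CPM, with Pdzd2 and Glis3 significantly lower. The 10 medial habenula markers summed to 47.2 to 91.6 CPM against 284 to 424 CPM, and 9 of them were significantly lower (Tac2, Chrnb4, Chrna3, Gpr151, Pou4f1, Irx2, Slc5a7, Chat, and Syt15). Of all listed genes, 1.22% were significant in either direction. Most of the significant CA1, dentate, and habenula genes are also in the study's own list of differentially expressed genes from these samples. Their counts are therefore no independent test. Among these markers Irx2 and Chat were at 0 CPM in replicates 3 and 6, and Pou4f1 was at 0 CPM in replicate 6. Listed genes had at least 1 CPM in at least 2 samples, which Irx2 and Chat could not reach without Phf21b+/+ mice. Pou4f1 could do so only with at least 1 CPM in both replicates 2 and 3, whose values are not given here. Irx2, Chat, and Pou4f1 carry this limit among the 9 significant genes. The 8 choroid plexus and ependymal markers summed to 15606 CPM in Phf21b+/+ replicate 7, 1040 CPM in replicate 8, and 31.9 to 103 CPM in the other 4 mice. The 10 pan-neuronal markers summed to 8185 to 9667 CPM against 6074 to 7778 CPM. All 8 interneuron markers had the higher value in Phf21bΔ4/Δ4 mice, with sums of 698 to 849 CPM against 475 to 541 CPM, and 7 of them had an unadjusted p under 0.05, which 23.6% of all genes reached in either direction. Gad2 was the significant one among them, and it is also in the study's own list. All 8 endothelial and mural markers also had the higher value, with sums of 234 to 361 CPM against 165 to 229 CPM, and 4 had an unadjusted p under 0.05. Of the 8 astrocyte markers, 4 had the lower and 4 the higher value, with 2 lower at an unadjusted p under 0.05 and Aqp4 significantly lower. Aqp4 is in the study's own list as well. No oligodendrocyte, microglia, endothelial and mural, or erythrocyte marker was significant in limma (0 of 8, 0 of 8, 0 of 8, and 0 of 5), and the unadjusted p was under 0.05 in 0 oligodendrocyte, 1 microglia, and 0 erythrocyte markers. The part of these tissue differences in the values below was not tested, and in bulk tissue fewer cells of a type and less RNA per cell cannot be told apart.

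No respiratory chain subunit met the threshold for differential expression between Phf21bΔ4/Δ4 and Phf21b+/+ hippocampi. A gene was taken as significant in limma at an FDR under 0.1 with a fold change above 1.3, and 0 of the 81 genes passed, while 1.22% of all listed genes did. An unadjusted p under 0.05 was reached by 9 of the 81 genes, against 23.6% of all genes. All 9 had the lower value in Phf21bΔ4/Δ4 mice (Ndufb2, Ndufa2, Ndufs4, Ndufa7, Uqcrh, Uqcr10, Cox7a1, Cox7a2l, and Atp5e). Among all genes with an unadjusted p under 0.05, 1736 had the lower and 1685 the higher value. limma voom on the reads also called 0 of them, with 7 lower and 0 higher at an unadjusted p under 0.05. The differences were small. For 53 genes the mean changed by less than 10%, for 24 by 10% to 25%, and for 4 (Cox8b, Cox7a1, Ndufa4l2, and Cox6a2) by more. The 95% interval of the difference lay within 1.3-fold in either direction for 55 of the 81 genes, so that a larger change was outside the interval for these, while for the other 26 it was not.

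**Figure D1:**
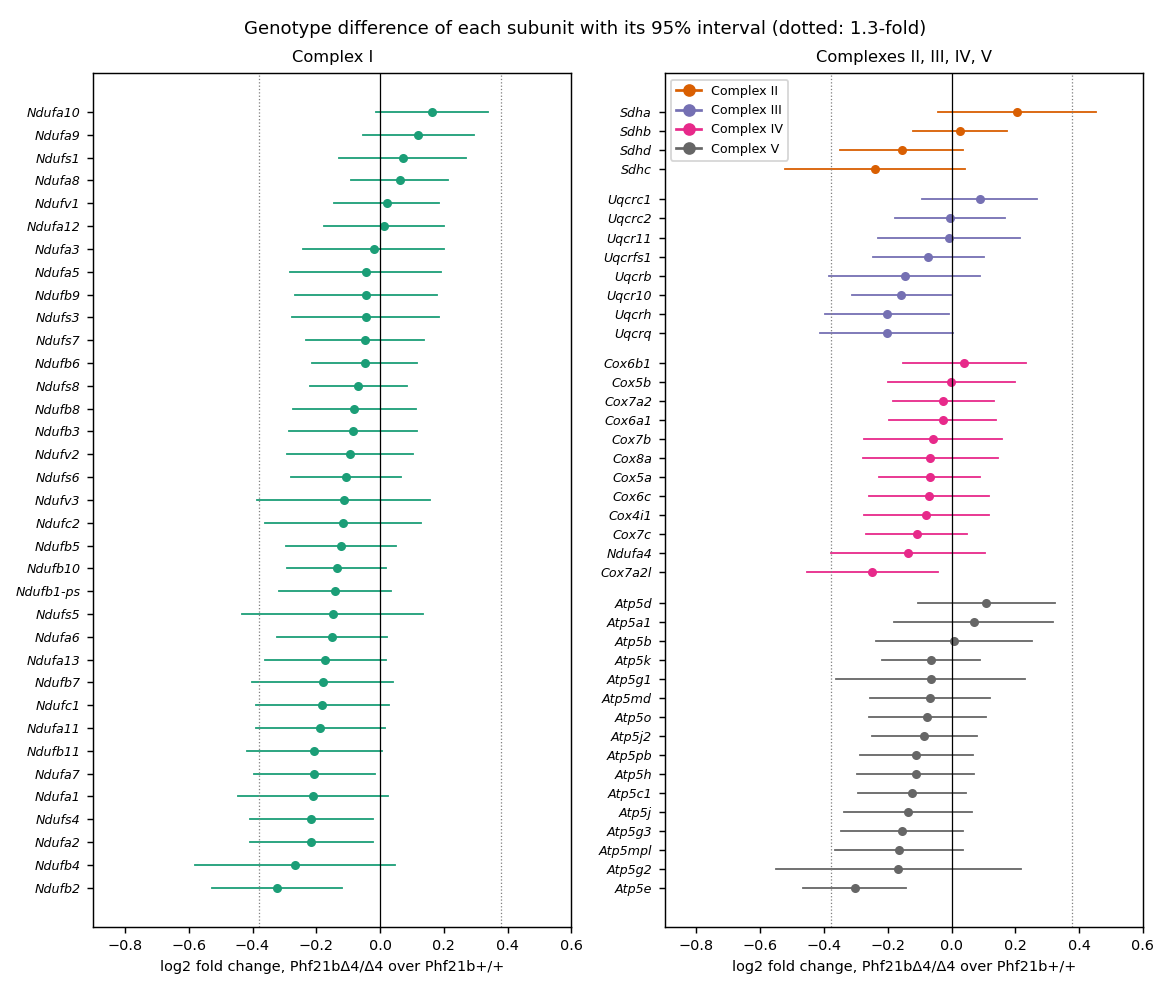
Log2 fold change of Phf21bΔ4/Δ4 over Phf21b+/+ mice (points) with its unadjusted 95% interval from limma (bars) for 75 of the subunits averaging 2 log2 CPM or more, in 5 colors by complex, with dotted lines at 1.3-fold. Every point lies between the dotted lines, and more points lie left of 0 than right of it.

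Although no single gene passed, small negative differences prevailed. The log2 fold change was below 0 for 66 genes and above 0 for 15, with a median of -0.086 over the 81 genes and of -0.019 over all listed genes. The median of -0.086 corresponds to -5.77%. In 29 genes all 3 Phf21bΔ4/Δ4 mice were below all 3 Phf21b+/+ mice, which is 35.8% of the 81 genes, and this was seen in 16.0% of all genes. In 3 genes, Ndufa8, Ndufa10, and Sdhb, all 3 Phf21bΔ4/Δ4 mice were above, which was seen in 15.0% of all genes, but Ndufa8 turned to -0.0023 by quantile normalization and -0.049 by scaling to total reads, and Sdhb to -0.087 and -0.084. Summed over the 81 genes, the level was 11868, 11367, and 11394 CPM in the Phf21bΔ4/Δ4 mice and 11630, 12232, and 11689 CPM in the Phf21b+/+ mice. On this scale of effective library size the sums overlapped between the genotypes, with means of 11543 ± 282 and 11851 ± 332 CPM (SD, n = 3 each). As a share of all listed reads they did not overlap. The 81 genes held 1.13%, 1.08%, and 1.12% in Phf21bΔ4/Δ4 mice and 1.20%, 1.29%, and 1.21% in Phf21b+/+ mice. Listed reads were 101.6% to 105.3% of the effective library in Phf21bΔ4/Δ4 mice and 94.7% to 97.3% in Phf21b+/+ mice.

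The mice were also compared one by one with the mean of the Phf21b+/+ mice. The median deviation of the 81 genes on the log2 scale was -0.053, -0.11, and -0.12 in Phf21bΔ4/Δ4 replicates 2, 3, and 6, and -0.046, 0.048, and -0.011 in Phf21b+/+ replicates 5, 7, and 8. Phf21bΔ4/Δ4 replicate 2 and Phf21b+/+ replicate 5 were thus close to each other. Phf21b+/+ replicate 7, the library with the high choroid plexus markers, held the highest value for 40 of the 81 genes and was above the Phf21b+/+ mean for 64. Phf21bΔ4/Δ4 replicate 3 held the lowest value for 28 genes. Without Phf21b+/+ replicate 7 the median difference was -0.072, and the medians of complexes III and V went from -0.11 each to -0.053 and -0.068. With fewer mice, groups separate more often by construction. Without Phf21b+/+ replicate 7, 31 of the 81 genes (38.3%) were lower and 6 (7.41%) higher without overlap, against 19.7% and 17.6% of all genes. The count of higher genes was also 6 without Phf21bΔ4/Δ4 replicate 3 and 8 (9.88%) without replicate 6, against 19.1% and 26.8% of all genes.

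**Figure D2:**
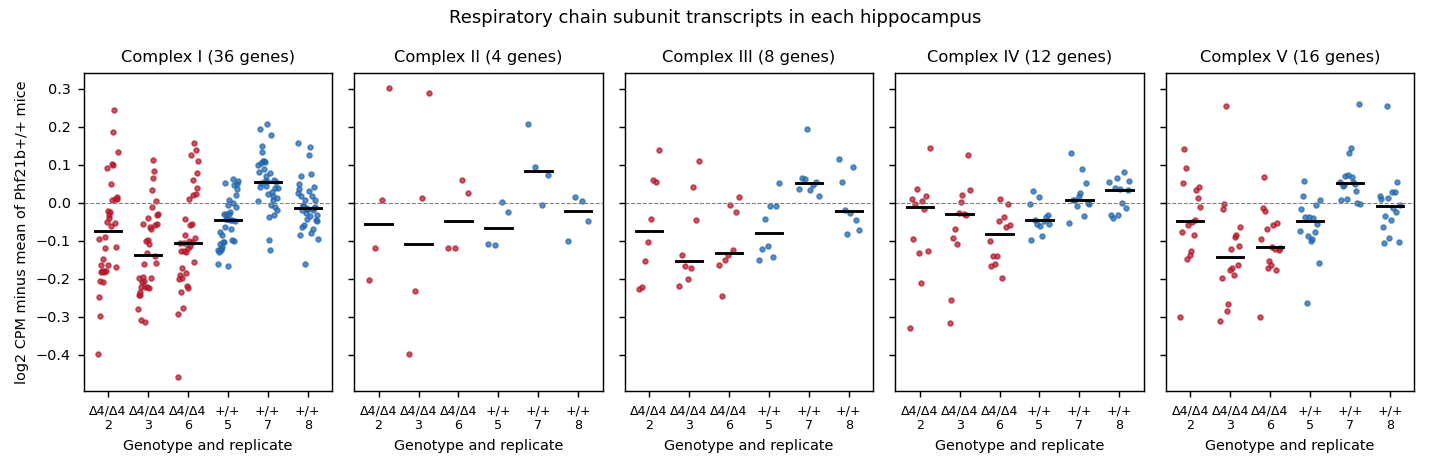
Deviation of each subunit from the mean of the 3 Phf21b+/+ mice, in log2 CPM, for the 76 genes averaging 2 log2 CPM or more (points), by complex and mouse, with the median of each mouse as a black bar. The bars of replicates 3 and 6 lie below 0 in every panel, and the bar of Phf21b+/+ replicate 7 lies above it, by little in complex IV.

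The differences varied with transcript length. Most of these mRNAs are short, with a median length of 861 bases for the longest principal transcript in the GENCODE annotation, against 3102 bases for all listed genes. Across all genes averaging 1 log2 CPM or more, short transcripts were lower in Phf21bΔ4/Δ4 mice. The median log2 fold change was -0.19 for 106 genes under 600 bases, -0.17 for 511 genes of 600 to 1000 bases, -0.090 for 2366 genes of 1000 to 2000 bases, -0.0044 for 5274 genes of 2000 to 4000 bases, and 0.093 for 4561 longer genes. The subunits had medians of -0.15 (17 genes), -0.085 (29 genes), -0.071 (24 genes), and 0.070 (6 genes) in the first 4 of these classes, which were all above the medians of all genes, and -0.19 (2 genes) in the last, which was below. Among all 780 genes with transcripts under 1000 bases, 33.7% were lower in Phf21bΔ4/Δ4 mice without overlap, and among the 49 subunits of this length it was 17. Across the 81 subunits, Spearman's rho between log2 fold change and length was 0.33, a description over genes that share the same 6 libraries. Among the 78 subunits averaging 1 log2 CPM or more it was 0.28. Between log2 fold change and mean log2 CPM, rho across the 81 subunits was larger, at 0.46. Length is thus not the only property with which the differences varied.

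When each mouse was corrected for a smooth trend on exonic length, the median log2 fold change of the subunits was 0.0072 and that of all genes -0.020. Of the 81 genes, 43 were then above 0 and 38 below. Without overlap, 7 were lower and 8 higher, against 15.9% and 13.8% of the 14280 genes with a length. The genes still lower were Ndufb2, Ndufs4, Ndufb5, Sdhc, Cox7a1, Atp5e, and Atp5pb, and those higher were Ndufb6, Ndufa8, Ndufa9, Ndufa10, Sdhb, Cox6a1, Cox7a2, and Cox6b1. No gene passed the FDR after this correction (lowest adjusted p = 0.134, Ndufb2). The same sign of the median was found with other measures of length, at 0.056 with the longest and 0.036 with the shortest principal transcript. The source of the trend with length was not tested.

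**Figure D3:**
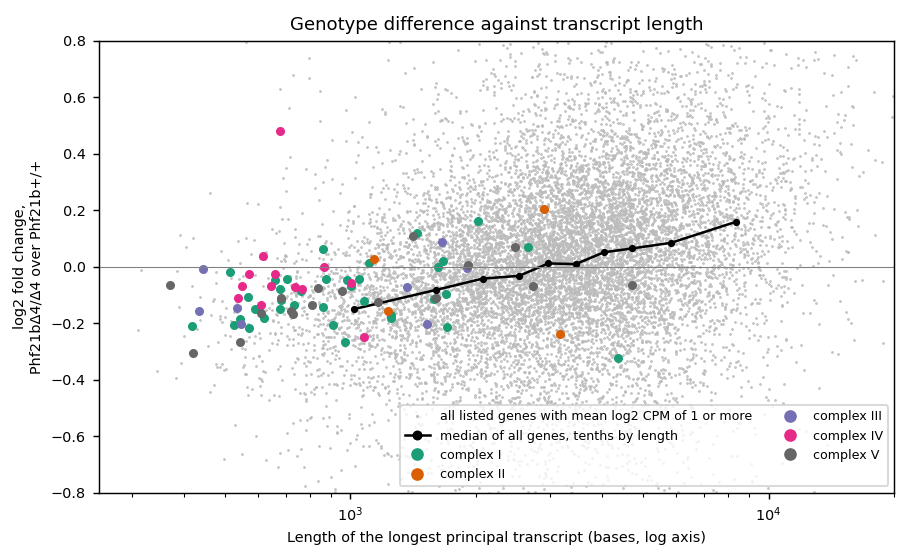
Log2 fold change of Phf21bΔ4/Δ4 over Phf21b+/+ mice against the length of the longest principal transcript (log axis) for all genes averaging 1 log2 CPM or more (gray), with the median of all genes in successive length classes (black line) and the 78 subunits colored by complex. The line rises from below 0 for short transcripts to above 0 for long ones, and most subunits lie at its short end.

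Complex I takes electrons from NADH through a flavin and a chain of iron-sulfur clusters. Its 7 nuclear core subunits, which carry these cofactors or the quinone site, had log2 fold changes between -0.095 and 0.071. Ndufs1, which encodes the largest subunit, was at 249.5, 223, and 245 CPM in Phf21bΔ4/Δ4 mice and 236.6, 234, and 213 CPM in Phf21b+/+ mice (log2 fold change 0.071, SE 0.083, adjusted p = 0.603), and the genotypes overlapped. Ndufv1, which encodes the subunit that binds NADH and the flavin, stood at 187 ± 7.17 against 185 ± 5.73 CPM (SD, n = 3 each). The iron-sulfur subunit genes Ndufv2, Ndufs7, and Ndufs8 had log2 fold changes of -0.095, -0.047, and -0.068, and Ndufs3 had -0.045. Of the 7 genes only Ndufs8 separated the genotypes (73.6, 73.4, and 71.6 CPM against 73.9, 78.5, and 76.7 CPM), by a narrow gap. This is 14.3% of the 7 genes, against 16.0% of all genes lower without overlap.

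The 29 accessory genes of complex I, whose products surround the core and serve in assembly and stability, had a median log2 fold change of -0.14, and that of the 7 core genes was -0.045. After the length correction these medians were -0.0042 and 0.052. Of the 29 genes, 14 (48.3%) were lower without overlap and 2 (6.90%) higher, against 16.0% and 15.0% of all genes. Among all genes with transcripts under 1000 bases, 33.7% were lower. After the length correction 3 of the 29 genes were lower without overlap and 4 higher, against 15.9% and 13.8% of all genes with a length. The lowest log2 fold change of the 29 genes was that of Ndufb2 (chr6:39592574-39603382, GRCm38), which encodes a small subunit of the membrane arm. Its level was 40.7, 44.1, and 43.7 CPM in Phf21bΔ4/Δ4 mice and 49.2, 57.4, and 54.5 CPM in Phf21b+/+ mice, so that every Phf21bΔ4/Δ4 mouse was below every Phf21b+/+ mouse. The log2 fold change of Ndufb2 was -0.32 (SE 0.086, adjusted p = 0.141) and was -0.36 after the correction for exonic length, -0.38 with the longest principal transcript, and -0.17 with the shortest. The longest principal transcript of Ndufb2 has 4371 bases and the shortest 455, and which of these the hippocampus uses was not measured. Ndufs4, required for the NADH-oxidizing arm, was at 61.8, 64.2, and 70.6 CPM against 72.0, 78.1, and 77.8 CPM (log2 fold change -0.22, SE 0.081, adjusted p = 0.185, and -0.17 after the length correction). Ndufa2 and Ndufa7, which encode small accessory subunits, also separated the genotypes. Ndufa2 was at 53.6, 55.5, and 55.4 CPM against 58.2, 67.3, and 65.9 CPM (log2 fold change -0.22, SE 0.081, adjusted p = 0.185), and 11.5% of its exonic bases lie in exons of another gene. Ndufa7 was at 65.1, 62.5, and 61.9 CPM against 66.9, 75.6, and 76.5 CPM (log2 fold change -0.21, SE 0.079, adjusted p = 0.191). After the correction for exonic length the log2 fold changes of Ndufa2 and Ndufa7 were -0.021 and -0.11, and with the longest principal transcript -0.022 and -0.0054. At the other end stood Ndufa10, with 195, 174, and 184 CPM in Phf21bΔ4/Δ4 mice and 169.9, 161, and 163 CPM in Phf21b+/+ mice (log2 fold change 0.16, SE 0.073, adjusted p = 0.231). Per kilobase of transcript, taken here and in the other complexes as the longest principal one, Ndufb9 was the highest gene of complex I at 180.5 CPM and Ndufb2 the lowest at 12.3 CPM in Phf21b+/+ mice. With the shortest principal transcript Ndufb2 had 118 CPM per kilobase, and Ndufb4 was then the lowest at 24.5 CPM.

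Complex II oxidizes succinate to fumarate and is also an enzyme of the citric acid cycle, and all 4 of its subunits are nuclear. On the scale of the deposited values, the log2 fold changes of Sdha and Sdhb were above 0 and those of Sdhc and Sdhd below 0, while quantile normalization gave Sdha -0.031 and Sdhb -0.087, and scaling to total reads gave Sdhb -0.084. Sdha (chr13:74322254-74350280, GRCm38), which encodes the flavoprotein that oxidizes succinate, had 522, 516, and 430.4 CPM in Phf21bΔ4/Δ4 mice and 416, 445, and 409 CPM in Phf21b+/+ mice. Replicates 2 and 3 were high and replicate 6 overlapped with the Phf21b+/+ mice (log2 fold change 0.21, SE 0.10, adjusted p = 0.267). Sdhb, the iron-sulfur subunit gene, was at 134, 134, and 139 CPM against 133, 132, and 133 CPM, with the 3 Phf21bΔ4/Δ4 mice above by a narrow gap. The membrane anchor genes Sdhc and Sdhd had lower values in all 3 Phf21bΔ4/Δ4 mice. Sdhc had 82.9, 72.4, and 87.8 CPM against 88.5, 110.2, and 89.0 CPM (log2 fold change -0.24, SE 0.12, adjusted p = 0.262), and its log2 fold change was -0.14 without Phf21b+/+ replicate 7. Sdhd had 96.7, 89.5, and 96.7 CPM against 97.4, 112, and 106 CPM (log2 fold change -0.16, SE 0.081, adjusted p = 0.275). In both anchor genes the genotypes were apart by less than 1 CPM. Per kilobase, Sdha was the highest at 146 CPM and Sdhc the lowest at 30.2 CPM in Phf21b+/+ mice.

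Complex III transfers electrons from ubiquinol to cytochrome c. Uqcrc1 and Uqcrc2, which encode the large core proteins, had log2 fold changes of 0.088 and -0.0051, and Uqcrfs1, which encodes the Rieske iron-sulfur protein, had -0.074. None of these 3 genes separated the genotypes. Uqcrc1 was at 256, 251, and 235 CPM against 241, 236, and 221.4 CPM. The small subunit genes Uqcrq, Uqcrh, and Uqcr10 were lower without overlap. These are 37.5% of the 8 genes, against 16.0% of all genes and 33.7% of all genes with transcripts under 1000 bases. After the length correction 0 of the 8 genes were lower without overlap. Uqcrq had 54.8, 55.1, and 57.2 CPM in Phf21bΔ4/Δ4 mice and 57.7, 65.7, and 69.5 CPM in Phf21b+/+ mice (log2 fold change -0.20, SE 0.088, adjusted p = 0.219). Uqcrh had 169, 179, and 166.6 CPM against 181, 206.5, and 205 CPM (log2 fold change -0.20, SE 0.081, adjusted p = 0.201, and -0.070 after the length correction). Uqcr10 had 89.3, 88.4, and 89.4 CPM against 96.3, 104, and 98.0 CPM. Its log2 fold change of -0.16 turned to 0.036 after the length correction. Per kilobase, Uqcrh, the gene of the hinge protein that helps cytochrome c dock, was the highest at 361 CPM and Uqcrq the lowest at 42.3 CPM in Phf21b+/+ mice. With the shortest principal transcript Uqcrq had 159 CPM per kilobase, and Uqcrfs1 was then the lowest at 86.3 CPM.

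The catalytic center of complex IV is encoded by mitochondrial DNA, and its nuclear subunits surround it. The 11 genes of subunits or isoforms found in most tissues had a median log2 fold change of -0.067, with a range of -0.14 (Ndufa4) to 0.039 (Cox6b1). Cox4i1, the highest of complex IV per kilobase at 663 CPM, stood at 505.5, 483, and 453 CPM in Phf21bΔ4/Δ4 mice and 491, 509, and 521 CPM in Phf21b+/+ mice, with overlap. Of the 11 genes, Cox7c was the one lower without overlap (9.09%, against 16.0% of all genes). Cox7c was at 48.2, 48.2, and 46.8 CPM against 52.6, 51.7, and 50.1 CPM, and 50.4% of its 75-base stretches also occur in other genes. Cox7a2l was lower in all 3 Phf21bΔ4/Δ4 mice. It had 74.2, 74.9, and 87.0 CPM against 93.1, 89.9, and 96.8 CPM (log2 fold change -0.25, SE 0.086, adjusted p = 0.169). Of its transcript, 15.3% of the 75-base stretches also occur in other genes, so that its count is uncertain to that extent.

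Cox6a, Cox7a, and Cox8 each have an isoform found in most tissues and one that is known from heart and skeletal muscle. In all 6 mice the common isoform was higher by far. Cox6a1 was at 215 to 235 CPM, Cox7a2 at 148 to 160.2 CPM, and Cox8a at 231 to 275 CPM, with the genotypes overlapping in each. Per kilobase in Phf21b+/+ mice, Cox6a1 had 389.8 CPM and Cox6a2 3.75 CPM, Cox7a2 had 235 CPM and Cox7a1 6.16 CPM, and Cox8a had 487 CPM and Cox8b 9.95 CPM. The regions from 250 bases before to 50 bases after the start of Cox6a1, Cox8a, Cox7a1, and Cox8b are shown because the largest differences among the 81 genes were those of Cox8b and Cox7a1, and the other 2 genes are common isoforms. They come from RefSeq (GRCm38.p6), 5′ to 3′ on the gene's strand, and capitals mark matches to the motifs described after them.
Cox6a1, chr5:115348909-115349208, minus strand: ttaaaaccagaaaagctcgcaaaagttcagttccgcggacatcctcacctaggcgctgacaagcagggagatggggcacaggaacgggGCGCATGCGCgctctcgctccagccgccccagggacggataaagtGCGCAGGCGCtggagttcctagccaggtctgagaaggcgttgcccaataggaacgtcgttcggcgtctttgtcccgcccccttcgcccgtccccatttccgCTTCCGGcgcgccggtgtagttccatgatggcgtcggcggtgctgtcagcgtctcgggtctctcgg
Cox8a, chr19:7217567-7217866, minus strand: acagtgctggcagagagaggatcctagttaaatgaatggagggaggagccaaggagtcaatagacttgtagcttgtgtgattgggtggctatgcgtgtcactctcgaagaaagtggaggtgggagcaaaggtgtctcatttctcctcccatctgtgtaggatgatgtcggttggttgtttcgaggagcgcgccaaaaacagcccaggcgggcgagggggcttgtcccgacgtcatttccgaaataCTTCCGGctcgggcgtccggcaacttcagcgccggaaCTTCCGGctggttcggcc
Cox7a1, chr7:30183921-30184220, plus strand: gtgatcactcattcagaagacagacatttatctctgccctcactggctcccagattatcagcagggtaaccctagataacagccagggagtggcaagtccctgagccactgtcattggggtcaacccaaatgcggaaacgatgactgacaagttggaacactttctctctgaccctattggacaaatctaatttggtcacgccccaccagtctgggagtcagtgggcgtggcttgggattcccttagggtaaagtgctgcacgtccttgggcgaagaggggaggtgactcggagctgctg
Cox8b, chr7:140900397-140900696, minus strand: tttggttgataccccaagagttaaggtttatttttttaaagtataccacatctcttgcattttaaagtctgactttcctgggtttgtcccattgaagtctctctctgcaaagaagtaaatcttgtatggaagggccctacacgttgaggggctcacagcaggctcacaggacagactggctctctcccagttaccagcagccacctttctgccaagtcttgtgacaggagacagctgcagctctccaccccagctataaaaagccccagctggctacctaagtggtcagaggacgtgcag

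The motifs were those of NRF1 (GCGCA and GCGC with any base between them), of ETS factors such as GABPA (CCGGAAG), and of YY1 (AAGATGGC), factors known to act on nuclear respiratory genes. They were searched on both strands and independently, so that matches could overlap. The NRF1 letters were found in 25.8% of the 66 subunit genes with a RefSeq start and in 10.8% of the 11292 listed genes with one. The ETS letters were found in 25.8% and 18.2%, and the YY1 letters in 15.2% and 4.81%. Of all 32851 windows of that length, 4.60%, 8.86%, and 2.75% held them. At least 1 of the 3 was found in 57.6% of the subunit genes and 29.7% of the listed genes. Cox6a1 held 2 NRF1 matches and 1 ETS match, and Cox8a held 2 ETS matches. No match was found in the windows of Cox7a1 and Cox8b, which also held 7 and 2 CG dinucleotides against 32 in Cox6a1 and 19 in Cox8a. The windows of Cox7a2, the common partner of Cox7a1, and of Cox5a, Cox5b, Cox7b, and Cox7c held no match either. Cox7a2 had 20 CG dinucleotides and Cox7b 5. The contrast between the windows shown therefore does not hold for all common subunits. The median log2 fold change was -0.11 in subunit genes with the NRF1 letters and -0.086 in those without, -0.068 and -0.11 for the ETS letters, and -0.097 and -0.10 for the YY1 letters.

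The muscle isoforms of complex IV held the largest differences of the 81 genes, and that of Cox8b rested on Phf21b+/+ replicates 7 and 8. The authors kept genes of at least 1 CPM in at least 2 samples, and in the other mice Cox8b was far below 1 CPM. Cox8b was therefore listed only through these Phf21b+/+ mice, which fixed the direction of its difference in advance. Cox8b had 9.66 CPM in Phf21b+/+ replicate 7, 0.989 CPM in replicate 8, and 0.0949 CPM in replicate 5, and 0.0843, 0.238, and 0.0870 CPM in the Phf21bΔ4/Δ4 mice. These values are 229, 22, and 2 reads and 2, 5, and 2 reads, so that Phf21b+/+ replicate 5 lay within the Phf21bΔ4/Δ4 mice. The 0.989 CPM of replicate 8 is scaled to its effective library, of which its listed reads were 96.7%. Whether the filter of 1 CPM used that scale is not given in the sources used here. The log2 fold change of Cox8b was -2.97 (SE 1.58, adjusted p = 0.287), and -1.33 without Phf21b+/+ replicate 7 (adjusted p = 0.625) and -4.63 without replicate 5. Its adjusted p ran from 0.0978 to 0.625 over all alternatives. Cox7a1 had 3.76 CPM in Phf21b+/+ replicate 7, 1.89 CPM in replicate 8, and 1.61 CPM in replicate 5, and 0.928, 1.14, and 1.17 CPM in the Phf21bΔ4/Δ4 mice. Its genotypes did not overlap (log2 fold change -1.06, SE 0.37, adjusted p = 0.169), and without replicate 7 the log2 fold change was -0.70 (adjusted p = 0.389, with a range of 0.0396 to 0.389 over all alternatives). Both genes were highest in replicate 7 and next highest in replicate 8, as were the summed choroid plexus and ependymal markers (15606 and 1040 CPM). Among these markers Ttr was at 14542 CPM in replicate 7 and 872 CPM in replicate 8, and at 2.74 to 53.2 CPM in the other mice. The part of this tissue in Cox8b and Cox7a1 was not tested.

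**Figure D4:**
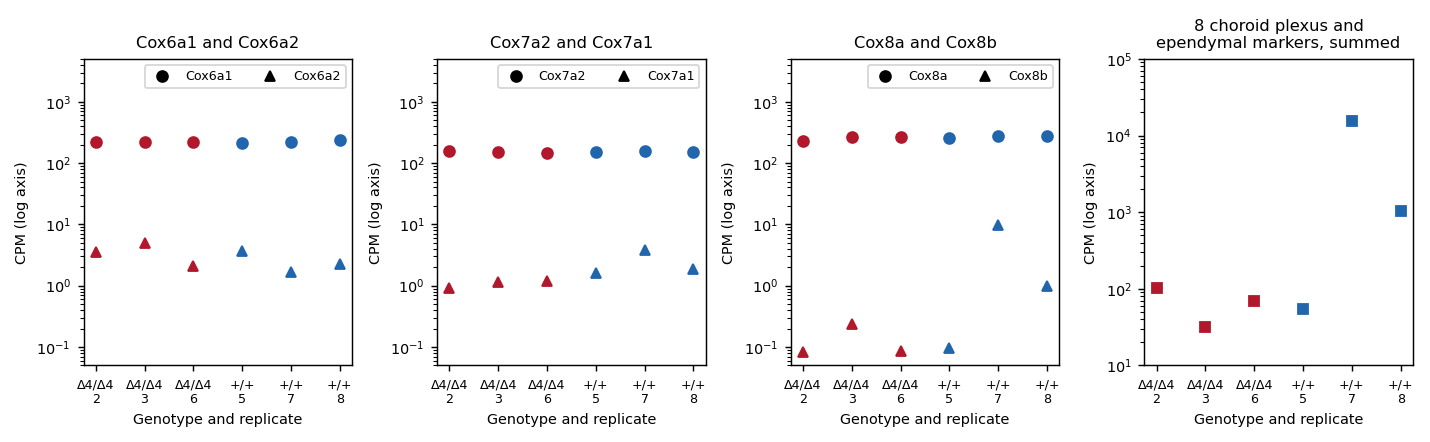
Levels in CPM (log axes) of the common (circles) and muscle (triangles) isoforms of 3 complex IV subunits in each mouse, and the summed level of 8 choroid plexus and ependymal markers (squares), with Phf21bΔ4/Δ4 mice in red and Phf21b+/+ mice in blue. Cox8b and Cox7a1 are highest in Phf21b+/+ replicate 7, where the markers reach 15606 CPM, while Cox8a stays at 231 to 275 CPM and Cox7a2 at 148 to 160.2 CPM.

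Cox6a2 did not share this pattern. It had 3.58, 5.05, and 2.09 CPM in Phf21bΔ4/Δ4 mice and 3.75, 1.65, and 2.25 CPM in Phf21b+/+ mice (log2 fold change 0.48, SE 0.42, adjusted p = 0.491), and it was lowest in replicate 7. Its log2 fold change was 0.19 without Phf21bΔ4/Δ4 replicate 3 and 0.21 without Phf21b+/+ replicate 7, and 0.82 without Phf21bΔ4/Δ4 replicate 6 and 0.80 without Phf21b+/+ replicate 5. Ndufa4l2, a relative of Ndufa4 that is known from pericytes and hypoxia, was the lowest of complex IV per kilobase at 0.790 CPM. It had 1.05, 0.667, and 1.22 CPM against 0.854, 0.506, and 0.854 CPM (log2 fold change 0.40, SE 0.41, adjusted p = 0.546), and its log2 fold change ran from 0.15 without Phf21b+/+ replicate 7 to 0.66 without Phf21bΔ4/Δ4 replicate 3. Ndufa4 itself was at 232.5, 193.5, and 206 CPM against 216, 253, and 226 CPM. In these 3 genes the genotypes overlapped.

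ATP synthase has a soluble F1 head, which makes ATP, and a membrane part with a stalk. Atp5b and Atp5a1, the genes of its β and α subunits, had the highest CPM of the 81 genes. Atp5b, which encodes the catalytic β subunit, was at 1493, 1425, and 1426 CPM in Phf21bΔ4/Δ4 mice and 1459, 1487, and 1378 CPM in Phf21b+/+ mice. Per kilobase it was the highest of all 81 genes at 752 CPM. Atp5a1, the α subunit gene, was at 1239, 1119, and 1175.5 CPM against 1168, 1159, and 1043 CPM. The log2 fold changes of Atp5b and Atp5a1 were 0.0072 and 0.069, and their genotypes overlapped. Atp5c1, the γ subunit gene, was at 272, 250.2, and 269 CPM against 283.5, 288.4, and 289 CPM (log2 fold change -0.12, SE 0.071, adjusted p = 0.315), without overlap. Atp5d, the δ subunit gene, had the highest log2 fold change of complex V (0.11, SE 0.090, adjusted p = 0.468), with overlap.

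Atp5e (chr2:174461072-174464105, GRCm38), which encodes the small ε subunit at the foot of the central stalk, had the lowest adjusted p of the 81 genes. Its level was 64.2, 63.8, and 64.2 CPM in Phf21bΔ4/Δ4 mice and 75.2, 82.2, and 80.1 CPM in Phf21b+/+ mice. The 3 Phf21bΔ4/Δ4 mice were nearly identical and all were below the Phf21b+/+ mice. The log2 fold change was -0.30 (SE 0.067, adjusted p = 0.131), or -19.0%, with an unadjusted 95% interval of -0.47 to -0.14. The transcript has 421 bases, and the length correction moved the log2 fold change to -0.21 with exonic length, -0.083 with the longest principal transcript, and -0.15 with the shortest. The γ, δ, and ε subunits form the central stalk together, and their genes had log2 fold changes of -0.12, 0.11, and -0.30.

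The 12 genes of the membrane part and stalk had log2 fold changes between -0.27 (Atp5l) and -0.065 (Atp5k), all below 0, and 4 were lower without overlap (Atp5g3, Atp5j, Atp5pb, and Atp5k). This is 33.3% of the 12 genes, against 16.0% of all genes and 33.7% of all genes with transcripts under 1000 bases. After the length correction the median of the 12 genes went from -0.11 to -0.066, and 1 was lower without overlap, against 15.9% of all genes with a length. Atp5g1, Atp5g2, and Atp5g3 encode the same mature c subunit of the membrane ring. Atp5g3 was at 151, 147, and 149.6 CPM against 162, 182, and 156 CPM, without overlap. Atp5g1 was at 87.0, 78.2, and 77.6 CPM against 75.8, 101, and 78.8 CPM and Atp5g2 at 8.43, 7.67, and 8.92 CPM against 7.78, 9.41, and 11.1 CPM, both with overlap. The sum of the 3 genes averaged 239 ± 7.15 CPM over the Phf21bΔ4/Δ4 mice against 262 ± 27.2 CPM (SD, n = 3 each). The highest sum, 293 CPM, was that of Phf21b+/+ replicate 7, and the other 2 Phf21b+/+ mice stood at 245.7 and 246.0 CPM. Atp5l was the lowest gene of complex V per kilobase, at 4.83 CPM. Because 63.4% of the 75-base stretches of Atp5l and 86.9% of those of Atp5g2 also occur in other genes, the levels of both are uncertain. Such sharing reached 10% or more in 15 of the 81 genes, and overlap of exons with other genes did in 12. Among the 56 genes with neither, the median log2 fold change was -0.080 and 20 (35.7%) were lower without overlap, against 16.0% of all genes.

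Other genes of mitochondrial respiration were compared with the subunits. Of the 13 subunit genes of mitochondrial DNA, 7 were listed, and they varied between mice of the same genotype. Their sum was 15256, 14436, and 10575 CPM in Phf21bΔ4/Δ4 mice and 13192, 13026, and 17962 CPM in Phf21b+/+ mice. Their log2 fold changes ran from -0.20 (mt-Co1) to 0.15 (mt-Nd4), with overlap in all 7 and none significant in limma or at an unadjusted p under 0.05. Of the 15 listed complex I assembly factors, 0 were significant, with log2 fold changes from -0.45 (Ndufaf8, adjusted p = 0.190) to 0.18 (Ndufaf7) and unadjusted p under 0.05 in 1. Of the 34 listed assembly factors of complexes II to V, 0 were significant, with log2 fold changes from -0.42 (Cox20) to 0.36 (Cox10, which acts in making heme for complex IV, adjusted p = 0.160) and unadjusted p under 0.05 in 3 lower and 3 higher genes. Of 7 listed electron carriers and subunits outside the symbol rule, 0 were significant and 0 reached an unadjusted p under 0.05.

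The transcription regulators of these genes did not differ significantly either. In limma, 0 of 15 passed, and 1 had an unadjusted p under 0.05. Ppargc1a, the coactivator that drives mitochondrial biogenesis, was at 47.7, 70.2, and 32.4 CPM in Phf21bΔ4/Δ4 mice and 32.3, 32.5, and 35.8 CPM in Phf21b+/+ mice. Its replicates 2 and 3 were high and replicate 6 was not (log2 fold change 0.51, SE 0.26, adjusted p = 0.269). The log2 fold changes of Nrf1, Gabpa, Tfam, Esrra, and Yy1 were -0.040, -0.19, -0.026, -0.10, and -0.037. The 17 genes of the citric acid cycle and pyruvate dehydrogenase had a median log2 fold change of 0.13, with 0 significant genes and 0 lower and 2 higher at an unadjusted p under 0.05. They ranged from -0.39 (Suclg2) to 0.31 (Cs, citrate synthase, adjusted p = 0.179). Of 16 glycolytic genes, Ldha, a subunit gene of lactate dehydrogenase, was significant (log2 fold change 0.42, SE 0.074, adjusted p = 0.0890), 9 were higher and 0 lower at an unadjusted p under 0.05, and the median was 0.26. Of all 14477 genes, 1736 were lower and 1685 higher at this unadjusted p. The glycolysis list shares Eno2 with the pan-neuronal markers, all 10 of which had the higher value, and Aldoc with the astrocyte markers. The mRNAs of the citric acid cycle and glycolysis lists are longer, with median lengths of 2544 and 2432 bases, and after the length correction the medians were 0.13 and 0.24.

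Further housekeeping families were set beside the subunits, whose median transcript length is 861 bases. The median length was 1316 bases for mitochondrial ribosomal, 1490 for proteasome, and 882 for cytosolic ribosomal protein genes. The 77 mitochondrial ribosomal protein genes had a median log2 fold change of -0.078, with 20 (26.0%) lower and 0 higher without overlap and 0 significant (9 lower at an unadjusted p under 0.05). The 38 proteasome subunit genes had a median of -0.081, with 11 (28.9%) lower and 4 (10.5%) higher without overlap and 0 significant (4 lower and 2 higher at an unadjusted p under 0.05). The 76 cytosolic ribosomal protein genes had a median of -0.31, with 70 (92.1%) lower and 0 higher without overlap. Rpl39, which is also in the study's own list of differentially expressed genes, was significant (log2 fold change -0.40, SE 0.070, adjusted p = 0.0890). These shares stand against 16.0% lower and 15.0% higher among all genes and 33.7% lower among all genes with transcripts under 1000 bases. The median mitochondrial ribosomal and proteasome transcripts are longer than that class. After the length correction the 3 medians were -0.021, -0.030, and -0.23. Before this correction, the respiratory chain had a median near those of the mitochondrial ribosome and the proteasome. After it, the median of the respiratory chain was 0.0072. No test of a difference between the lists was made.

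**Figure D5:**
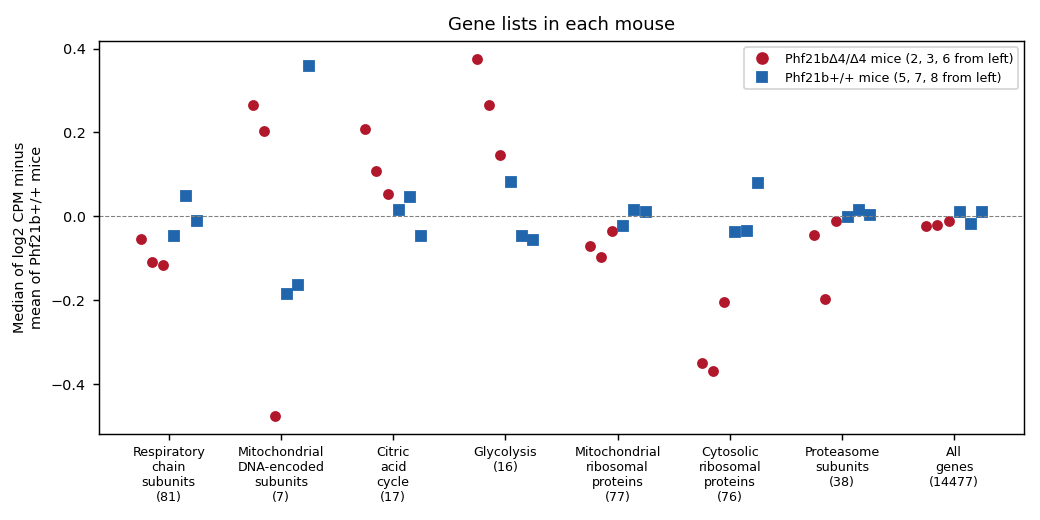
Median deviation from the mean of the 3 Phf21b+/+ mice, in log2 CPM, of each gene list in each mouse (circles, Phf21bΔ4/Δ4; squares, Phf21b+/+), with the number of genes in parentheses. The respiratory chain medians lie between -0.12 and 0.048, while the cytosolic ribosomal protein genes reach -0.37 and the genes of mitochondrial DNA spread widely within each genotype.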

How the data were processed

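RNA-Seq values of hippocampal tissue from 3 Phf21bΔ4/Δ4 and 3 Phf21b+/+ mice were analyzed, grouped by their sample labels. The values are log2 CPM, which the authors made by trimming reads (Trimmomatic 0.39), mapping to GRCm38 (STAR 2.7.3a), summarizing by featureCounts (Subread 1.6.4), keeping genes of at least 1 CPM in at least 2 samples, and scaling to effective library size with edgeR before they were deposited. Strandedness of the counting is not given in the sources used here. CPM and reads were worked out from the steps of low values, which gave whole reads for 100.0% of values (tolerance 0.1), and means are ± SD over mice.

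The genotypes were compared on the log2 values of all 14477 genes with limma 3.58.1 in R 4.3.3 (lmFit, eBayes with a trend, 2-sided, Benjamini-Hochberg). P-values reflect the spread between mice of a genotype. Because the genotypes share no replicate numbers, mice were not paired. The test was checked on simulated data. Lengths, overlaps, and positions come from GENCODE M21 (GRCm38), which held 98.6% of the symbols, while the authors used a later release. The trend on length was a lowess curve with a span of 0.3. Further steps used Python 3.11.15 (pandas 2.3.3, matplotlib 3.10.9).

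The subunits, gene lists, and tests were chosen with earlier results of these data known. Named subunits are those significant, the extremes of fold change and level per kilobase in each complex, catalytic subunits, and isoform families. From other lists they are significant genes, main regulators, and the extremes of the assembly factor, mitochondrial DNA, and citric acid cycle lists. Other genes were named after their values were seen. The individual values of 1 subunit are not reported here. Alternatives were other limma settings, voom, filters, offsets, scalings, corrections for length and GC content, thresholds, and leaving out each mouse.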

Additional observations from a re-analysis of the deposited data

How the results depend on the processing

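No paired analysis was possible because the genotypes share no replicate numbers. No subunit was significant under an FDR under 0.05, no fold threshold, a constant prior variance, robust fitting, a filter at a mean log2 CPM of 1, log2(CPM + 1), log2(CPM + 0.1), quantile normalization, centring, voom, the length and GC corrections, or with any mouse left out. Without Phf21bΔ4/Δ4 replicate 6, 5 subunits passed the FDR (lowest adjusted p = 0.042, Cox7a2l) but not the fold. Weighting of the mice called 2 subunits (Cox7a1 and Cox8b) among 3549 genes, with 19 subunits past the FDR. Scaling by total listed reads, chosen after seeing the data, called 1 subunit (Atp5e) among 253 genes. Over all genes, 176 were called, against 75 with a constant prior variance, 101 with the filter, and 9 (without Phf21b+/+ replicate 8) to 2830 (without Phf21bΔ4/Δ4 replicate 6) with a mouse left out.

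The median log2 fold change of -0.086 became -0.18 by quantile normalization, -0.036 by centring, and -0.20 by total reads, which shifted all genes to -0.13. It ranged from -0.12 to -0.072 with a mouse left out. It reversed to 0.0072 with exonic length, and, in corrections chosen after seeing the data, to 0.056 with the longest and 0.036 with the shortest principal transcript. Complexes I to IV reversed to 0.0078, 0.035, 0.040, and 0.053 with exonic length. Complexes I to V reversed to 0.050, 0.051, 0.047, 0.11, and 0.022 with the longest and to 0.014, 0.036, 0.0038, 0.074, and 0.035 with the shortest transcript. Uqcr10 reversed to 0.036 with exonic length and 0.061 with the longest transcript. Sdha reversed to -0.031 by quantile normalization, and Ndufa8 and Sdhb reversed to -0.0023 and -0.087 by it and to -0.049 and -0.084 by total reads.

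The 29 subunits lower without overlap became 48 by quantile normalization, 11 by centring, 53 by total reads, and 7, 5, and 5 by the 3 length corrections. The 3 higher became 1, 5, 0, and 8, 10, and 7 under these, and 1 with the GC correction. With a mouse left out they were 31 to 42 lower and 3 to 8 higher, against 18.8% to 28.5% lower and 17.6% to 26.8% higher of all genes, since smaller groups separate more often by construction. With exonic length, 15.9% of all genes were lower and 13.8% higher without overlap. For the other scalings and corrections the shares of all genes are not given here, so those counts are no result about the subunits alone. The median of all genes was 0.019 by quantile normalization, 0.030 by centring, and -0.13 by total reads. The 66 subunits below 0 became 75 by quantile normalization, 54 by centring, 76 by total reads, and 38, 23, and 32 by the length corrections. The 9 lower at an unadjusted p under 0.05 ranged with a mouse left out from 3 (without Phf21b+/+ replicate 7 or 8) to 12 (without Phf21b+/+ replicate 5), and were 4 with a constant prior variance, 17 by weighting, 32 by quantile normalization, 3 by centring, 7 by voom, 3, 1, and 1 by the length corrections, 13 with the GC correction, and 40 by total reads. The shares of all genes at this unadjusted p are not given here for these settings. The cause of these shifts was not tested. Counts of 2 to 5 reads, as in Cox8b, limit the precision of the least abundant isoforms.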
